A study of Oreolalax rhodostigmatus with 13 samples.

Results

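Among the 249088 unigenes assembled from tadpoles of *Oreolalax rhodostigmatus*, a megophryid toad with transparent tadpoles that live in dark caves, 150 were chosen because their level was lowest after 30 h of light and not before. A unigene is an assembled transcript, and its level is given as FPKM, which is scaled to transcript length and library size. Eligible were the 29348 unigenes above 0 in all 13 libraries with a mean FPKM of at least 1. The members were selected on these FPKM values themselves. Each unigene was scored by its lowest FPKM among the 10 control and short-term exposed tadpoles divided by its highest FPKM among the 3 long-term exposed tadpoles, and the 150 with the highest score (0.511% of those eligible) are the members described here. They are numbered 1 to 150 from the highest score down. Their fall in the long-term exposed group is therefore what chose them, and it is described without a test. The short-term exposed group is also compared with control. The score does not use that difference, but its lowest value comes from the same 10 tadpoles, so a unigene with low values in either group was less likely to be a member.

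All 13 tadpoles were taken at one time from a dark pool of one cave at Gosner stage 25, a free-feeding stage before limb growth. The control group held 4 tadpoles killed on collection. The short-term exposed group held 6 tadpoles kept for 4 h in a cage at the lit cave entrance, and the long-term exposed group held 3 tadpoles kept there for 30 h, with a lamp at night. Each library came from a single animal, and eyeballs, liver, dorsal skin and, in the methods but not in the sample labels, part of the tail were put in one tube. Time in light, time in the cage and time of day changed together between the groups and cannot be told apart. In such bulk samples, fewer cells of a type and less RNA per cell cannot be told apart either.

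Amphibian skin takes its colour from dermal and epidermal pigment cells, which make melanin, pteridines or store carotenoids, and tadpoles can add melanin and pigment cells over hours to days of light. Liver makes the plasma proteins, above all albumin and fibrinogen, from a few very abundant transcripts. A transcript that is abundant in one organ can take a large share of the RNA of a mixed tube, so its FPKM depends on the amount of that organ in the tube as well as on its transcription.

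None of the 150 members is among the 1597 unigenes that the supplementary annotation used here names. No gene name, product or function is therefore given to any of them. Only part of the study's general annotation was held, and the paper reports annotations for far more unigenes. Of the 29348 eligible unigenes, only 208 were named. With so few named, the lack of a name here does not show that the members lack an annotation. Member 2 is Cluster-29057.101840 and member 6 is Cluster-29057.93070 in the deposited table. Their sequences were not analysed here.

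The lowest sum of FPKM among the 13 libraries was 91.8% of the highest. FPKM is already scaled to library size, so this says nothing of sequencing depth. The number of reads behind a value is not kept in FPKM. Unigenes above 0 numbered 112990 to 134725 in control, 91929 to 136138 in short-term exposed and 140196 to 147363 in long-term exposed tadpoles. Short-term exposed replicate 5 stood apart with a median level of eligible unigenes 0.60 lower on the log2 scale than the median of the 10 control and short-term exposed libraries, and this shift was -0.30, 0.12 and 0.01 in long-term exposed replicates 1 to 3. After median-of-ratios scaling, which removes such shifts, all 150 members still had a score above 1, the lowest being 1.63, but 102 of them remained among the 150 highest scores.

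The members made up 1.11 to 2.28% of the summed FPKM in the control tadpoles, 0.864 to 2.04% in the short-term exposed and 0.117 to 0.145% in the long-term exposed tadpoles. Relative to a unigene's median over the 10 control and short-term exposed libraries, the median member lay between -0.36 and 0.13 on the log2 scale in control libraries and between -0.17 and 0.25 in short-term exposed ones. In long-term exposed replicates 1 to 3 it lay at -2.70, -2.62 and -2.78. The score divides by the highest of these 3 libraries, so their likeness is partly fixed by the choice of members.

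Entries with liver-type names differed in the other direction in the same tubes. Many names used here come from tables that the study chose on these samples, in part for a rise with light. Counts of entries higher after 30 h are therefore partly fixed by that choice. Of 8 unigenes matched by words to hepatocyte products (albumin, fibrinogen, complement and the like), some are not particular to liver. All 8 were higher in all 3 long-term exposed tadpoles than in any other, 4 were eligible and none scored above 1. Their summed FPKM was 854 to 2177 in control, 544 to 2493 in short-term exposed and 8135 to 12024 in long-term exposed tadpoles, nearly all of it albumin. Without albumin it was 1.28 to 3.84 in control, 0.90 to 11.5 in short-term exposed and 42.1 to 75.1 in long-term exposed tadpoles. Some entries matched to other cells differed too. Crystallin gamma E, a lens protein, was at 0 to 1.04 FPKM in control, 0.66 to 2.15 FPKM in short-term exposed and 7.83, 6.77 and 7.33 FPKM in the long-term exposed tadpoles. Of 8 macrophage and lysosome entries (cathepsins and VSIG4), 6 were higher in all 3 long-term exposed tadpoles than in any other, and the list summed to 224 to 278 FPKM in control, 245 to 322 FPKM in short-term exposed and 535 to 804 FPKM in long-term exposed tadpoles. The 6 muscle-type entries summed to 3.52 to 8.12 FPKM in control, 1.61 to 8.26 FPKM in short-term exposed and 11.4 to 13.0 FPKM in long-term exposed tadpoles. Of these, 2 of 6 were higher in all 3, alpha-actinin-4 and a myosin light chain kinase 3-like entry. Much of the sum was not particular to muscle. In long-term exposed replicates 1 to 3, myosin light polypeptide 6 had an entry at 5.33, 7.42 and 7.34 FPKM, and alpha-actinin-4 was at 2.70, 3.06 and 2.29 FPKM. Slow skeletal troponin I, at 2.18, 0 and 0 FPKM, and titin, at 0.18, 0.75 and 0.79 FPKM, overlapped with earlier tadpoles. The 2 desmoglein-2 entries, of cell junctions and not particular to epidermis, overlapped between all groups, and no hemoglobin was named. Only 4 hepatocyte, 5 macrophage and lysosome and 1 each of the lens and retina, muscle and epidermis entries were eligible for the score. None of them scored above 1, where 6.98% of all eligible unigenes did, and nothing is read from so few. All 3 long-term exposed values lay above all others in 4.95% of eligible unigenes. That share does not cover the entries that were not eligible. The part of the shifts in these lists in the fall of the members was not tested.

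**Figure D1:**
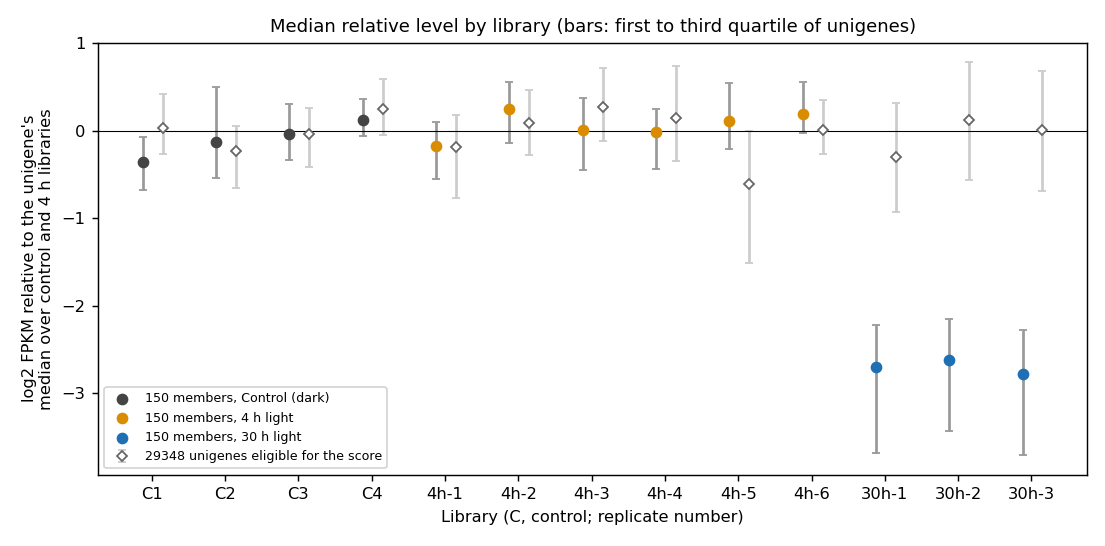
Median level of the 150 members (filled circles) and of the 29348 eligible unigenes (open diamonds) in each of the 13 libraries, as log2 FPKM relative to the unigene's own median over the control and 4 h libraries. Bars run from the first to the third quartile over unigenes. Members lie at -2.62 to -2.78 in the 3 libraries of 30 h light, while eligible unigenes have a median between -0.60 and 0.28 in every library.

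Over the members, log2(FPKM + 0.1) in long-term exposed minus control had a median of -2.54, from -9.57 to -1.38, beside a median of -0.03 over all eligible unigenes. Against the short-term exposed group the median was -2.72, beside 0.01 over the eligible unigenes. All 150 members were lower than control by at least 1 on this scale, 115 by at least 2, 49 by at least 3 and 10 by at least 5. On the linear scale the control mean was a median of 6.19 times the long-term exposed mean, and the short-term exposed mean was 7.38 times. For 61 members the control mean was at least 8 times and for 24 at least 16 times the long-term exposed mean.

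Member 1 had the highest score, 20.6, ahead of member 2 at 18.8. Member 1 had 8.16, 29.9, 2.52 and 11.2 FPKM in control replicates 1 to 4, 2.06 to 25.6 FPKM (median 6.30) in the 6 short-term exposed tadpoles and 0.09, 0.10 and 0.05 FPKM in long-term exposed replicates 1 to 3. The highest long-term exposed value was close to the resolution of the table, which is rounded to 2 decimals. Member 2 was more abundant by far. Member 2 had 318, 1252, 122 and 633 FPKM in control replicates 1 to 4, 168 to 1259.9 FPKM (median 579.5) in the 6 short-term exposed tadpoles and 3.52, 3.73 and 6.48 FPKM in long-term exposed replicates 1 to 3. Member 3 had 123, 331, 174 and 199 FPKM in control replicates 1 to 4, 4.80 to 236 FPKM (median 169) in the 6 short-term exposed tadpoles and 0.07, 0.10 and 0.39 FPKM in long-term exposed replicates 1 to 3. Member 3 fell to under 1 FPKM in every long-term exposed tadpole, and its 2 lowest earlier values, 20.6 and 4.80 FPKM, came from short-term exposed replicates 3 and 4.

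Member 4 had 9.71, 37.0, 1.91 and 34.9 FPKM in control replicates 1 to 4, 2.23 to 63.2 FPKM (median 11.8) in the 6 short-term exposed tadpoles and 0.16, 0.05 and 0.09 FPKM in long-term exposed replicates 1 to 3. Member 5 had 84.5, 256, 29.2 and 36.0 FPKM in control replicates 1 to 4, 47.2 to 146 FPKM (median 95.7) in the 6 short-term exposed tadpoles and 2.46, 2.97 and 1.63 FPKM in long-term exposed replicates 1 to 3. Both varied over 5-fold among the control and short-term exposed tadpoles and remained apart from all long-term exposed ones. Member 6 had 13.4, 9.65, 17.9 and 13.8 FPKM in control replicates 1 to 4, 9.22 to 21.6 FPKM (median 14.7) in the 6 short-term exposed tadpoles and 0.66, 0.89 and 1.07 FPKM in long-term exposed replicates 1 to 3. Member 6 was the steadiest of the first 10. Its control mean was 13.7 ± 3.36 FPKM (SD, n = 4), its short-term exposed mean 15.0 ± 4.03 FPKM (n = 6) and its long-term exposed mean 0.87 ± 0.21 FPKM (n = 3).

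Member 7 had 189, 1088, 52.0 and 835 FPKM in control replicates 1 to 4, 208 to 2285 FPKM (median 417) in the 6 short-term exposed tadpoles and 4.69, 6.59 and 6.52 FPKM in long-term exposed replicates 1 to 3. Member 8 had 183, 105, 61.7 and 107 FPKM in control replicates 1 to 4, 35.6 to 392 FPKM (median 158) in the 6 short-term exposed tadpoles and 1.35, 4.82 and 0.90 FPKM in long-term exposed replicates 1 to 3. Both were abundant in control and short-term exposed tadpoles alike and lay under 7 FPKM in every long-term exposed one. Member 9 had 3.03, 4.86, 15.9 and 5.32 FPKM in control replicates 1 to 4, 1.70 to 5.89 FPKM (median 2.42) in the 6 short-term exposed tadpoles and 0.23, 0.25 and 0.21 FPKM in long-term exposed replicates 1 to 3. Member 10 had 82.8, 184, 98.2 and 103 FPKM in control replicates 1 to 4, 76.6 to 293 FPKM (median 105) in the 6 short-term exposed tadpoles and 10.7, 9.21 and 11.3 FPKM in long-term exposed replicates 1 to 3. Member 10 kept the highest level of the first 10 after 30 h, at 10.4 ± 1.10 FPKM (SD, n = 3).

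**Figure D2:**
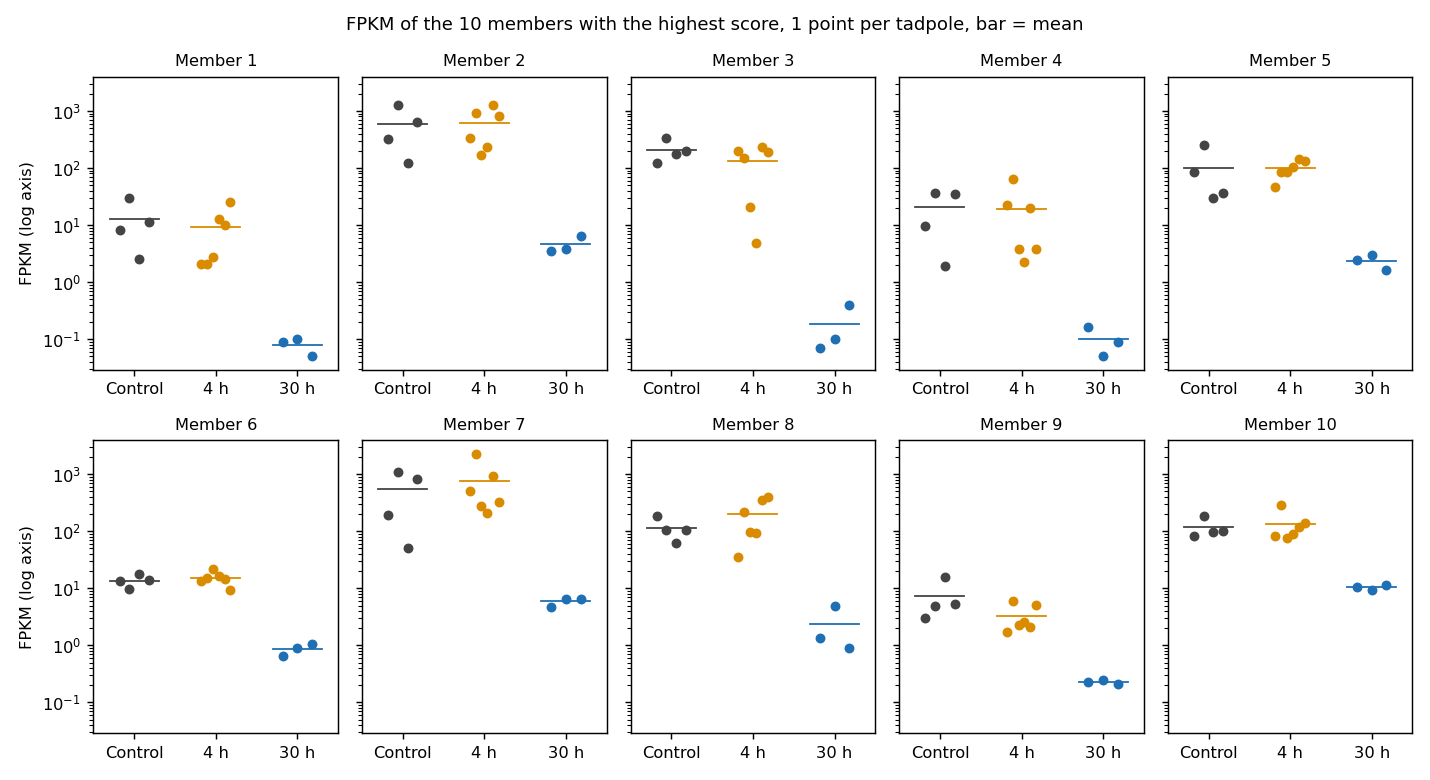
FPKM on a log axis of members 1 to 10 in control tadpoles (n = 4) and after 4 h (n = 6) and 30 h of light (n = 3), 1 point per tadpole, with the group mean as a bar. In each panel the 3 points at 30 h lie below all others, as the choice of members requires, and member 6 has the narrowest spread among control and 4 h tadpoles.

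The members included abundant transcripts. Their mean FPKM over the 13 libraries had a median of 19.6, from 1.06 to 2080, against a median of 4.11 over eligible unigenes. Member 41 had the highest mean. Member 41 had 2552, 4571, 3379 and 1210.5 FPKM in control replicates 1 to 4, 949 to 4595 FPKM (median 2169.6) in the 6 short-term exposed tadpoles and 45.6, 215 and 290 FPKM in long-term exposed replicates 1 to 3. Member 34 had 1145, 1277, 1005 and 834 FPKM in control replicates 1 to 4, 522 to 1293 FPKM (median 785) in the 6 short-term exposed tadpoles and 91.3, 147 and 128 FPKM in long-term exposed replicates 1 to 3. Member 106 had 561, 709, 705 and 465 FPKM in control replicates 1 to 4, 372 to 994 FPKM (median 598) in the 6 short-term exposed tadpoles and 156, 132 and 131 FPKM in long-term exposed replicates 1 to 3. Members 34 and 106 varied little within groups. Member 34 averaged 1065 ± 190.3 FPKM in control, 855 ± 295 FPKM in short-term exposed and 122 ± 28.3 FPKM in long-term exposed tadpoles (SD, n = 4, 6 and 3). Member 11 had 527, 1513, 189.6 and 489 FPKM in control replicates 1 to 4, 122 to 1548 FPKM (median 652) in the 6 short-term exposed tadpoles and 18.9, 11.4 and 14.7 FPKM in long-term exposed replicates 1 to 3. Members 7 and 11 completed the 5 most abundant, and both lay under 20 FPKM in every long-term exposed tadpole. At the other end, 33 members were under 1 FPKM in all 3 long-term exposed tadpoles, and 7 had a value under 0.1 FPKM there.

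The score falls off without a step. It was at least 10 in 4 members, at least 5 in 17, at least 4 in 25 and at least 3 in 50, with a median of 2.76. The last member scored 2.18244 and the first unigene outside 2.17695, so nothing sets the members apart from the next unigenes but the chosen number. Member 146 had 10.4, 11.1, 8.07 and 21.6 FPKM in control replicates 1 to 4, 8.30 to 19.0 FPKM (median 13.1) in the 6 short-term exposed tadpoles and 3.23, 3.66 and 1.67 FPKM in long-term exposed replicates 1 to 3. Member 147 had 1.52, 4.09, 10.1 and 14.9 FPKM in control replicates 1 to 4, 0.68 to 4.26 FPKM (median 2.30) in the 6 short-term exposed tadpoles and 0.13, 0.31 and 0.14 FPKM in long-term exposed replicates 1 to 3. Member 147 varied widely among the earlier tadpoles. Member 148 had 78.4, 248, 340.1 and 179.7 FPKM in control replicates 1 to 4, 38.8 to 291 FPKM (median 141) in the 6 short-term exposed tadpoles and 5.51, 17.7 and 16.8 FPKM in long-term exposed replicates 1 to 3. Member 149 had 22.9, 24.6, 23.4 and 29.8 FPKM in control replicates 1 to 4, 22.8 to 40.9 FPKM (median 25.2) in the 6 short-term exposed tadpoles and 8.90, 9.53 and 10.4 FPKM in long-term exposed replicates 1 to 3. Member 150 had 92.5, 121, 133 and 112 FPKM in control replicates 1 to 4, 107 to 158 FPKM (median 131) in the 6 short-term exposed tadpoles and 42.4, 34.4 and 31.6 FPKM in long-term exposed replicates 1 to 3. Members 149 and 150 were the steadiest of these 5, and averaged 9.61 ± 0.75 and 36.1 ± 5.60 FPKM in long-term exposed (SD, n = 3) against 25.2 ± 3.16 and 115 ± 17.2 FPKM in control tadpoles (n = 4).

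The 5 unigenes ranked 151 to 155 were of the same kind. Unigene 151 had 73.5, 61.8, 79.3 and 109 FPKM in control replicates 1 to 4, 72.2 to 120.4 FPKM (median 97.6) in the 6 short-term exposed tadpoles and 25.3, 28.4 and 25.6 FPKM in long-term exposed replicates 1 to 3. Unigenes 152 to 155 had lowest earlier values of 1.89, 4.86, 1.28 and 18.7 FPKM and highest long-term exposed values of 0.87, 2.24, 0.59 and 8.63 FPKM in that order. In all, 2049 eligible unigenes, 6.98% of them, had a score above 1, meaning all 10 earlier values above all 3 long-term exposed values. The opposite pattern, all 3 long-term exposed values above the 10 others, was met by 1452 (4.95%).

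**Figure D3:**
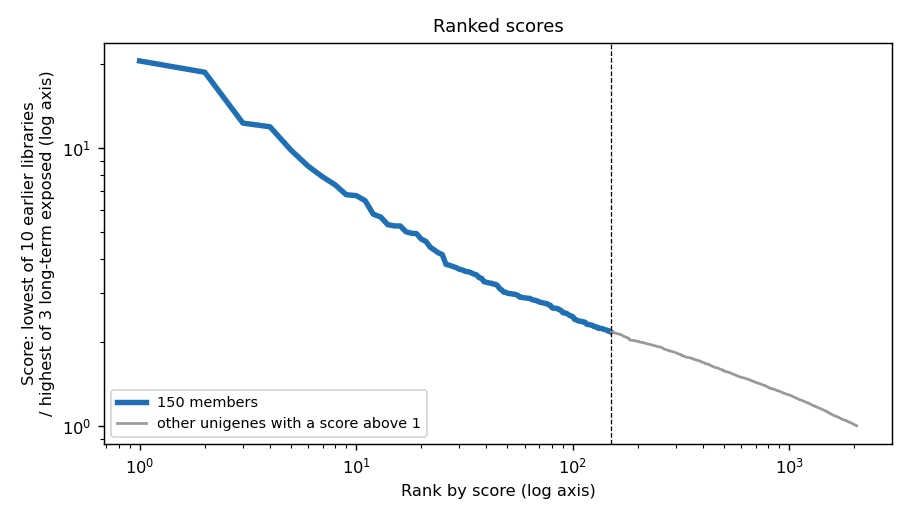
Score of the 2049 eligible unigenes with a score above 1 against their rank, both on log axes. The 150 members (thick line) run from 20.6 to 2.18 and the dashed line marks the chosen number, at which the curve shows no break.

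Within the 10 control and short-term exposed tadpoles the members were steadier than eligible unigenes at large, which the score favours because it takes the lowest of the 10. The SD of log2 FPKM, with nothing added, over the 10 had a median of 0.56 in members and 0.81 in eligible unigenes. In 19 members the highest of the 10 was under 2 times the lowest, and in 19 others it was over 10 times. Member 134, chosen here after its values were seen as the steadiest, averaged 28.6 ± 4.06 FPKM in control (SD, n = 4), 26.9 ± 2.81 FPKM in short-term exposed (n = 6) and 9.85 ± 0.39 FPKM in long-term exposed tadpoles (n = 3). The score divides by the highest long-term exposed value, which was replicate 2 in 69 members, replicate 3 in 41 and replicate 1 in 40. The lowest of the 10 was control replicate 2 in 30 members, control replicate 1 in 28 and short-term exposed replicate 1 in 23. In eligible unigenes those libraries held the lowest value in 10.5%, 5.72% and 17.8% in that order. Short-term exposed replicate 5, which held the lowest of the 10 values in 36.5% of eligible unigenes, did so in 9 members (6.00%).

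Some members shared a pattern over the earlier libraries. Over the 10 control and short-term exposed libraries, 14 of the other 149 members (9.40%) had a Pearson correlation of at least 0.7 with member 2 on the log2 scale, against 185 of 29347 eligible unigenes (0.630%). These are correlations over 10 points from the same libraries, which share their depth and the makeup of each tube, and they are given as a description. The score used the lowest of these 10 values, so the gap between both shares is partly fixed by the choice of members. The median correlation with member 2 was 0.04 over the other members and -0.23 over eligible unigenes. The 15 members, member 2 included, were numbers 2, 4, 7, 11, 12, 13, 15, 22, 23, 42, 52, 72, 95, 111 and 139, and 7 of them are among the 15 highest scores. Their median level was high in control replicate 2 (1.53 above the median of the 10 on the log2 scale) and in short-term exposed replicates 5 and 6 (0.90 and 0.82). It was low in control replicate 3 (-1.83) and short-term exposed replicates 3 and 4 (-1.72 and -1.53), so tadpoles of both groups stood at either end. In long-term exposed replicates 1 to 3 it was -4.97, -5.13 and -5.22. The swing of this median over the 10 earlier libraries follows in large part from choosing the 15 by their correlation with member 2.

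These 15 differed from the other 135 members in the medians of spread, level and size of the fall. This does not hold for each of the 15. Members 22 and 95 had SDs over the 10 of 0.52 and 0.47 on the log2 scale. Their long-term exposed minus control differences were -2.71 and -2.22. Their SD over the 10 had a median of 1.41 on the log2 scale, against 0.54 in the others, and their median mean FPKM was 112 against 17.2. Their long-term exposed minus control difference had a median of -4.92, against -2.42 in the others. A unigene with a wide spread over the 10 can reach the same score only with a larger mean fall. The gap in the fall is therefore partly fixed by the choice of members. With the steady member 6, 2 of 149 members (1.34%) and 1.43% of eligible unigenes had a correlation of at least 0.7. The SD of member 6 over the 10 was 0.37 on the log2 scale, against 1.22 for member 2. So little variation leaves little for a correlation to follow, and no contrast with member 2 is drawn. All 150 members carry identifiers of one assembly family, as do 99.0% of eligible unigenes. Only 2 pairs have consecutive numbers within it, with correlations of 0.44 and 0.39 over the 10 libraries, and without sequences it could not be told whether some members are pieces or copies of one transcript.

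**Figure D4:**
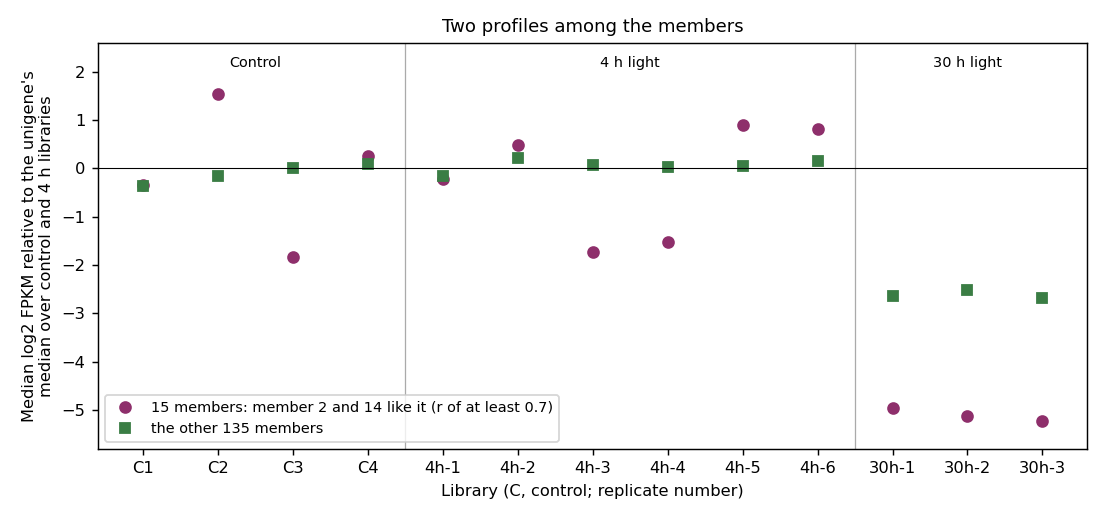
Median log2 FPKM, relative to the unigene's median over control and 4 h libraries, of the 15 members that follow member 2 (circles) and of the other 135 members (squares) in each of the 13 libraries. The 15 have medians of -1.83 to 1.53 among control and 4 h libraries and of -4.97 to -5.22 at 30 h. The other 135 have medians of -0.36 to 0.22 and of -2.52 to -2.68 in that order. The 15 were chosen for following member 2 over the same control and 4 h libraries, which fixes much of their swing there. Medians of members that do not move together even out, so the squares do not show that single members were steady.

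After 4 h of light the members were compared with control as well. This comparison is not independent of the choice, since the score takes the lowest of the same 10 values and leaves out unigenes with low values in either group. The counts below are therefore partly fixed by it and describe the members only. In limma over 147192 unigenes, 0 of the 150 members passed a Benjamini-Hochberg adjusted p under 0.05 for short-term exposed against control. Over all unigenes tested 0.0408% were called higher and 0.0401% lower, shares that come to less than 1 unigene in 150. The smallest adjusted p of a member was 0.248. At an unadjusted p under 0.05, 4 members were higher and 2 lower, beside 5.9% and 5.05% of all unigenes tested. Within the eligible unigenes these shares were 3.17% and 3.88%. The count of higher members was 13 with median-of-ratios scaling and 12 with array weights, against 2 and 3 lower, and 0 passed the adjusted p with either. The shares above belong to the main fit. No share over all unigenes at the unadjusted p is given here for scaling or weights, so nothing is read from those counts. A two-sided exact permutation test of each member, 6 against 4 tadpoles, gave an unadjusted p under 0.05 for 9 members that were higher after 4 h and 1 that was lower, beside 3.05% and 3.18% of eligible unigenes. After adjustment over the eligible unigenes it called 0 members and 0 unigenes in all. The smallest p that 6 against 4 tadpoles can give is 0.00476. Over 29348 unigenes such a p passes the adjustment only if very many unigenes share it, so nothing is read from this 0. Short-term exposed replicate 1 weighed on the calls over all unigenes, which numbered 60 higher and 59 lower with it and 2662 higher and 482 lower without it, but no member was called either way.

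The members' differences between short-term exposed and control were small for most. Log2(FPKM + 0.1) in short-term exposed minus control had a median of 0.15 over the members, with quartiles of -0.11 and 0.36, beside -0.07 over eligible unigenes and -0.10 over all unigenes tested. Without control replicate 1 the members' median was 0.06. The difference was above 0 in 102 of 150 members (68.0%) and in 44.2% of eligible unigenes. Nothing is read from this gap, because the score used these 10 values and, as given above, short-term exposed replicate 5 was the lowest of them in far fewer members than eligible unigenes. The difference was under 0.5 in size in 110 members and at least 1 in 8. With a median SE of 0.41, from 0.23 to 1.32, the fit could not have told most of these differences from 0.

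**Figure D5:**
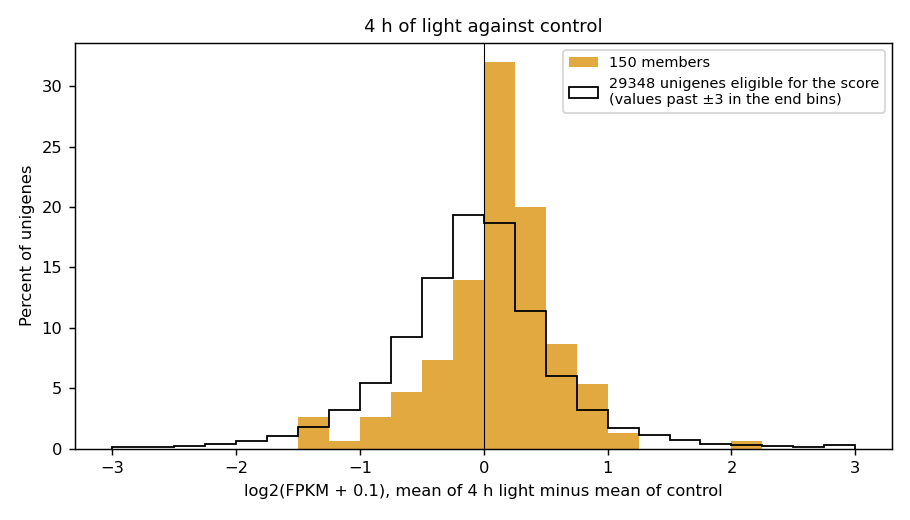
Percent of the 150 members (filled bars) and of the 29348 eligible unigenes (outline) by their difference in mean log2(FPKM + 0.1), 4 h of light minus control. The members' median is 0.15 and that of eligible unigenes -0.07, and 68.0% of members lie above 0.

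The 5 members with the largest positive difference were 35, 89, 74, 136 and 28, and none passed the test. Member 35 had 6.20, 30.5, 30.6 and 11.7 FPKM in control replicates 1 to 4, 9.20 to 2477 FPKM (median 29.3) in the 6 short-term exposed tadpoles and 1.76, 1.02 and 1.05 FPKM in long-term exposed replicates 1 to 3. Its difference of 2.01 (SE 1.32, adjusted p = 0.654) came from short-term exposed replicates 1 and 6, at 473 and 2477 FPKM, while 3 of the other 4 short-term exposed tadpoles lay within the range of the controls. Member 89 had 21.4, 64.2, 7.36 and 34.4 FPKM in control replicates 1 to 4, 19.9 to 103 FPKM (median 60.0) in the 6 short-term exposed tadpoles and 1.79, 2.84 and 2.11 FPKM in long-term exposed replicates 1 to 3. The difference was 1.14 (SE 0.55, adjusted p = 0.47) in limma. Member 74 had 3.97, 4.17, 4.45 and 4.35 FPKM in control replicates 1 to 4, 3.35 to 24.0 FPKM (median 10.2) in the 6 short-term exposed tadpoles and 1.20, 1.21 and 1.11 FPKM in long-term exposed replicates 1 to 3. For member 74, at 1.05 (SE 0.54, adjusted p = 0.515) in limma, the short-term exposed tadpoles split, since replicates 3, 4 and 6 were over 14 FPKM and replicates 1 and 2 below every control. Member 136 had 3.84, 7.34, 4.92 and 4.76 FPKM in control replicates 1 to 4, 4.97 to 13.7 FPKM (median 11.1) in the 6 short-term exposed tadpoles and 1.71, 0.70 and 1.40 FPKM in long-term exposed replicates 1 to 3. All but 1 of the short-term exposed values of member 136 were above every control, with a difference of 0.98 (SE 0.39, adjusted p = 0.357) in limma. Member 28 had 0.96, 0.58, 0.45 and 1.46 FPKM in control replicates 1 to 4, 1.10 to 2.41 FPKM (median 1.57) in the 6 short-term exposed tadpoles and 0.10, 0.12 and 0.05 FPKM in long-term exposed replicates 1 to 3. Its difference was 0.96 (SE 0.47, adjusted p = 0.476) in limma.

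The 5 with the largest negative difference were 51, 3, 90, 147 and 9, and none of these passed either. Member 51 had 3.16, 4.94, 1.14 and 4.49 FPKM in control replicates 1 to 4, 0.60 to 3.26 FPKM (median 0.79) in the 6 short-term exposed tadpoles and 0.05, 0.20 and 0.05 FPKM in long-term exposed replicates 1 to 3. Member 51 had 5 of 6 short-term exposed values below every control, with a difference of -1.48 (SE 0.57, adjusted p = 0.333) in limma. For member 3 the difference was -1.44 (SE 0.93, adjusted p = 0.648) in limma, with the 2 low short-term exposed tadpoles given above. Member 90 had 29.4, 12.2, 19.9 and 17.8 FPKM in control replicates 1 to 4, 3.61 to 32.4 FPKM (median 5.96) in the 6 short-term exposed tadpoles and 0.49, 1.41 and 0.70 FPKM in long-term exposed replicates 1 to 3. In member 90 the difference was -1.38 (SE 0.55, adjusted p = 0.354) in limma, with short-term exposed replicate 3 above every control and the other 5 below every one. Members 147 and 9 had differences of -1.35 (SE 0.63, adjusted p = 0.457) and -1.00 (SE 0.51, adjusted p = 0.509) in limma, with overlapping groups.

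Another 3 members are given for their small p, after their values were seen. Member 115 had 15.4, 16.6, 19.3 and 29.4 FPKM in control replicates 1 to 4, 23.8 to 43.8 FPKM (median 38.6) in the 6 short-term exposed tadpoles and 5.76, 6.56 and 5.86 FPKM in long-term exposed replicates 1 to 3. It had the smallest limma p of the members, with a difference of 0.88 (SE 0.29, adjusted p = 0.248), and 1 short-term exposed value below the highest control. Member 64 had 101, 80.9, 178 and 184 FPKM in control replicates 1 to 4, 157 to 302 FPKM (median 232) in the 6 short-term exposed tadpoles and 22.4, 25.6 and 28.2 FPKM in long-term exposed replicates 1 to 3. Its difference was 0.81 (SE 0.30, adjusted p = 0.305) in limma. Member 118 had 1.29, 1.09, 2.13 and 2.46 FPKM in control replicates 1 to 4, 2.47 to 4.44 FPKM (median 3.01) in the 6 short-term exposed tadpoles and 0.18, 0.47 and 0.23 FPKM in long-term exposed replicates 1 to 3. Member 118 was the one member of 150 whose short-term exposed values all lay above the controls, where 0.384% of all unigenes tested did, and none lay below without overlap, where 0.861% of all did. Its exact permutation p of 0.00476 is the smallest that 6 against 4 can give, and in limma the difference was 0.90 (SE 0.42, adjusted p = 0.448).

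Some named unigenes had the same order of groups at lower scores. Of the 208 named unigenes that were eligible, 10 (4.81%) scored above 1, beside 6.98% of all eligible, and none reached the members. Most of these names come from tables that the study chose on these samples, so they are no fair sample of genes. The rule for naming covered a pair from the coloration and growth factor tables. Sepiapterin reductase, an enzyme of tetrahydrobiopterin synthesis in the pteridine pathway, was ranked 660 with a score of 1.47. It had 18.8, 16.4, 33.4 and 29.3 FPKM in control replicates 1 to 4, 15.9 to 43.8 FPKM (median 22.4) in the 6 short-term exposed tadpoles and 9.49, 10.9 and 6.20 FPKM in long-term exposed replicates 1 to 3. Its short-term exposed and control values overlapped, with a log2 difference of -0.02 (SE 0.35, adjusted p = 0.996) in limma. Myeloid-derived growth factor, a secreted protein that in mice promotes tissue repair after infarction, was ranked 1095 with a score of 1.25. It had 40.6, 45.7, 65.3 and 63.5 FPKM in control replicates 1 to 4, 27.6 to 76.5 FPKM (median 52.4) in the 6 short-term exposed tadpoles and 18.6, 17.2 and 22.0 FPKM in long-term exposed replicates 1 to 3. Its log2 difference at 4 h was -0.08 (SE 0.30, adjusted p = 0.966) in limma. Of the pigment lists, 1 of 6 eligible carotenoid and pteridine entries (sepiapterin reductase) and 0 of 3 eligible melanin entries scored above 1. Of the growth factor-related entries it was 1 of 18.

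The other 8 came from the part held of the general annotation, in which 87 unigenes were eligible (9.20% with a score above 1), and they are named here after their values were seen. The nearest to the members was CCT4, a subunit of the cytosolic chaperonin that folds actin and tubulin, ranked 208 with a score of 2.00. It had 57.9, 51.3, 83.1 and 100.2 FPKM in control replicates 1 to 4, 85.0 to 129 FPKM (median 98.8) in the 6 short-term exposed tadpoles and 25.2, 23.9 and 25.6 FPKM in long-term exposed replicates 1 to 3. Its groups averaged 73.1 ± 22.6 FPKM in control, 102 ± 16.1 FPKM in short-term exposed and 24.9 ± 0.89 FPKM in long-term exposed tadpoles (SD, n = 4, 6 and 3), and its log2 difference at 4 h was 0.52 (SE 0.25, adjusted p = 0.474) in limma. PSMD13, a subunit of the proteasome's regulatory particle, averaged 26.8 ± 1.91 FPKM in long-term exposed and 56.4 ± 15.1 FPKM in control tadpoles. UBE2L3, a ubiquitin-conjugating enzyme, averaged 32.0 ± 5.11 FPKM in long-term exposed and 66.4 ± 13.7 FPKM in control tadpoles. TIM22, which inserts carrier proteins into the mitochondrial inner membrane, averaged 5.52 ± 0.61 FPKM in long-term exposed and 11.1 ± 2.26 FPKM in control tadpoles. The remaining 4 were a probable 28S rRNA methyltransferase (score 1.28), a protein of unknown function (1.17), the rhodanese-like protein TSTD1 (1.07) and the splicing factor U4/U6.U5 tri-snRNP-associated protein 1 (1.00). None of the 8 passed the test at 4 h, and their names come from the closest proteins of other species.

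Of the 48 ribosomal protein, 8 heat shock protein and 1 clock entries and the 23 colour signalling entries, none was eligible for the score.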

How the data were processed

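RNA from the pooled tissues of each of 13 tadpoles was sequenced as paired-end reads, on a HiSeq model that the methods and the sample labels name differently. The authors cleaned the reads, assembled them de novo with Trinity and deposited FPKM values for 249088 unigenes, rounded to 2 decimals. Which aligner and counter they used is not stated (not given in the sources used here). Because FPKM divides by transcript length and library size, the number of reads behind a value is not known from it. The study's summary of sequencing quality was not used here. An exact 0 may be a failed estimate. All 13 columns were assigned to a sample by name.

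The members, gene lists and naming rule were chosen with earlier results of these data known. Named were the 10 members of highest score, the 5 of lowest score with the 5 unigenes next below, the 5 of highest mean FPKM, the 5 with the largest difference in either direction in short-term exposed against control, and unigenes outside the members that the tables of figures name and that scored above 1. Gene names were matched by words, so 1 integrin caught by a complement pattern was left out of the hepatocyte list. The study's supplementary tables gave names only.

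The 147192 unigenes that reached 0.3 FPKM in 3 or more libraries entered one fit of log2(FPKM + 0.1) on the 3 groups. It was made by limma (version 3.58.1, under R 4.3.3), its variance prior following the mean level, and p-values were adjusted by Benjamini-Hochberg. All 150 members passed this filter. Fold changes on this scale understate the change of low unigenes. Long-term exposed libraries entered the fit but no test, since they chose the members. The lowest of the other 10 values entered the score too, which limits the test of short-term exposed against control. Exact permutation tests were two-sided. The code was tested on simulated data. The alternatives were other pseudocounts, filters and minimum means, median-of-ratios scaling, weights per library, a block for the replicate number, fewer libraries, a score from means or medians, and leaving out each library.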

Additional observations from a re-analysis of the deposited data

Results flagged for a closer look

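The highest value lay far above the next one in 6 of the 52 sets of values examined. All 6 were short-term exposed sets, and none was a control set. Each of the 26 members named above by the naming rule gave 1 control and 1 short-term exposed set, the groups of 4 or more. Chance would give about 5% of sets if values were normally distributed. FPKM is skewed, and some of these members were named for large differences, so the count is not read against that share. Short-term exposed replicate 2 was the high one in 3 of them, with 63.2 FPKM for member 4, 2285 FPKM for member 7 and 293 FPKM for member 10. Replicate 6 was the high one for member 35, with 2477 FPKM, and for member 51, with 3.26 FPKM. For member 35 replicate 1 was high too, at 473 FPKM. Replicate 3 was the high one for member 90, with 32.4 FPKM. In none of the 52 sets was the lowest value so far from the rest. The score works against such low values, because it takes the lowest of the 10 earlier tadpoles.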

How the results depend on the processing

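Under 24 alternatives to the fit of short-term exposed against control, 0 of 150 members passed the adjusted p in every one, also when each library was left out (0 to 0). The smallest adjusted p of a member was between 0.101 and 0.533 in the 23 limma alternatives and 0.618 in the exact permutation test. The permutation test could hardly have called any member, for the reason given above, and adds nothing to the limma fits here. The median member difference remained between 0.06 (without control replicate 1) and 0.22, that of long-term exposed against control between -2.63 and -2.10, and unigenes with a score above 1 numbered 1557 to 2960. Which unigenes are members depended more on the score: 39 of the 150 were still among the 150 highest with a ratio of means, 37 with a ratio of medians, 102 with median-of-ratios scaling, and 93 to 148 when each library was left out (93 without long-term exposed replicate 2). With short-term and long-term exposed replicates 1 left out together, chosen after the data were seen, it was 83.

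Replicate numbers do not pair the tadpoles, which are separate animals. Among 10 pairs of the same number the correlation of deviations was -0.24 to 0.14 and over 0.1 in 2. With the replicate number as a block 0 members were called, and over all unigenes 2 were called higher and 1 lower, against 60 and 59 without the block. At an unadjusted p under 0.05 in that fit 6 members were higher and 7 lower. No share over all unigenes is given here beside these counts, and nothing is read from them. Over all unigenes the calls were 115 higher and 86 lower with median-of-ratios scaling, 94 and 67 with array weights. They were 32 to 2662 higher and 38 to 482 lower when each library was left out, with 2662 and 482 without short-term exposed replicate 1. FPKM keeps no counts, so values of members near 0.1 FPKM after 30 h have an unknown counting error.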
